A study of Mus musculus with 23 samples.

Results

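Skeletal muscle tissue was compared with day 4 myotubes for DNA methylation at CCCGGG sites, over restriction fragments shorter than 2000 bp on chromosomes 1 to 19. These fragments number 49684 of the 173430 in the count table (28.6%), and their median length is 231 bp. Of the 49684, 23136 had no read in any of the 6 libraries, and 15063 had enough reads to be tested. The 6 libraries are part of a series of 23 mouse libraries from ES cells, muscle cells in culture and muscle.

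All 6 libraries came from males and no genetic or drug treatment is labelled. The muscle group holds 3 libraries of whole skeletal muscle, of which libraries 1 and 2 are from animals of a mixed 129Sv/C57BL/6J background and library 3 is from C57BL/6J. The labels give neither the age of the animals nor the muscle taken. The myotube group holds 3 libraries from C57BL/6J primary myoblasts, numbered 1 (culture 21), 2 (culture 27) and 3 (culture 26), which were grown to confluence on matrigel and kept for 4 days in low-serum medium. All myotube libraries share one strain and most muscle libraries do not, so strain and tissue cannot be told apart for muscle libraries 1 and 2. Whole muscle contains vessels, nerve, connective tissue, blood cells and satellite cells beside fibres. More cells of a type and more methylation per cell cannot be told apart in such bulk DNA.

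Methylation of cytosine in CpG is copied at cell division by Dnmt1 and set anew by Dnmt3a and Dnmt3b, and at promoters it usually goes with silence. CpG islands, CpG-dense stretches at many promoters, are mostly free of methylation in normal tissues, whereas retrotransposons are heavily methylated. During muscle differentiation myoblasts leave the cell cycle and fuse, and genes of the contractile apparatus are switched on under Myod1, Myog and Mef2 factors. AIMS-seq reads methylation through 2 enzymes that cut the same site. SmaI cuts CCCGGG only where it is unmethylated, XmaI then opens the methylated copies, and only ends made by XmaI accept the adaptor. A read therefore comes from a molecule methylated at both sites that bound a fragment, and the CpGs between those sites are not read. A level below is in CPM, the counts scaled to a common total of reads on these fragments after TMM, which corrects for library composition, and it is not a percentage of methylation.

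The sequences of a selection of the named fragments are given from the mm9 genome, forward strand, 5′ to 3′, with both bounding sites in capitals. They are shown because only the capital letters are assayed, and because their length and base content bear on the values below. The first (Cacng1, chr11:107579668-107579922) had the most negative difference, muscle minus myotubes, among promoter fragments of contractile, excitation, metabolism and myogenic regulator genes. The second lies in an intron of the methyltransferase gene Dnmt3a (chr12:3819794-3819997).
Cacng1: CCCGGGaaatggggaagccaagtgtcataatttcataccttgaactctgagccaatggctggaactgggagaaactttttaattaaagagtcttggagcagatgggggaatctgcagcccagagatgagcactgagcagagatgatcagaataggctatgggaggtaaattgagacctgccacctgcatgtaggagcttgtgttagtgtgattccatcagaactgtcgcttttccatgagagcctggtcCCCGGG
Dnmt3a: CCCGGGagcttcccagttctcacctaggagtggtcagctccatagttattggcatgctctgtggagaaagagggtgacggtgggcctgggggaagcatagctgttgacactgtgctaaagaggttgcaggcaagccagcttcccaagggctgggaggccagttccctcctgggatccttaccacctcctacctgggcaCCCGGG
Zfhx3: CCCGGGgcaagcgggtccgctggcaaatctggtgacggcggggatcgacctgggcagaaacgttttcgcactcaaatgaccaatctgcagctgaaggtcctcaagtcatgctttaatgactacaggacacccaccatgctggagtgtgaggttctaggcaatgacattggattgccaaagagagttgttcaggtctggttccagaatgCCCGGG
Ctbp2: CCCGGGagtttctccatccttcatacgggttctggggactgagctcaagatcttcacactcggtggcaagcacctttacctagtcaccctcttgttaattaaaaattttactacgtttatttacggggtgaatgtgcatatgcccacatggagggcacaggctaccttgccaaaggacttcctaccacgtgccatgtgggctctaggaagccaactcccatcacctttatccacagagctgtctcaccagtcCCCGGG
The Zfhx3 fragment (chr8:111475025-111475238) is exonic and overlaps a CpG island and its shore. The Ctbp2 fragment (chr7:140235971-140236228) is an intronic RSINE1 repeat, and both were lower in muscle. The next set was higher in muscle and is short or CpG-rich: Eno3 (chr11:70468999-70469232) and Pax7 (chr4:139388425-139388509) lie in promoter islands, Ldb3 (chr14:35362114-35362227) in an intronic island, Camk2b (chr11:5883076-5883202) in an intron and Dppa4 (chr16:48284155-48284244) just after its start.
Eno3: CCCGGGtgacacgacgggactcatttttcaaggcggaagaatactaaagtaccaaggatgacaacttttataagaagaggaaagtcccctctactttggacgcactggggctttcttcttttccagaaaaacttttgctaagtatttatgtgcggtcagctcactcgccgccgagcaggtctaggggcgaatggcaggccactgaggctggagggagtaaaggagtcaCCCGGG
Pax7: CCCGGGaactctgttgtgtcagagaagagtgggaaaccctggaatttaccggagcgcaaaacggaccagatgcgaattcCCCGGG
Ldb3: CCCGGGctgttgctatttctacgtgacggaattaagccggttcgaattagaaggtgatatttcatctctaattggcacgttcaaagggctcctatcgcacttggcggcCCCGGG
Camk2b: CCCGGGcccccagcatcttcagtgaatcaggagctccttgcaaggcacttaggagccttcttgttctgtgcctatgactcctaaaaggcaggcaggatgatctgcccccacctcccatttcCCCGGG
Dppa4: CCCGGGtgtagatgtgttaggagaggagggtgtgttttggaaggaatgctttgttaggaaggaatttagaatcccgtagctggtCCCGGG
Between its sites the Eno3 fragment holds 9 CpGs, the Ldb3 fragment 7, Pax7 4, Dppa4 1 and Camk2b 0, all higher in muscle. Of the fragments lower in muscle, Zfhx3 holds 7, Ctbp2 5, Cacng1 1 and Dnmt3a 1. CpG numbers of the printed sets thus overlapped, and these few chosen fragments cannot test whether CpG number goes with direction. The E-box CAGCTG, a hexamer that reads alike on both strands and is bound by Myod1, was searched in each. It occurs once in the Zfhx3 fragment and in none of the other fragments listed so far, and 11.9% of tested fragments within 50 bp of the Zfhx3 length hold it.

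The libraries held 8969489 to 13791669 reads, of which 93.4% to 96.7% fell in these fragments. The muscle libraries were alike, with Spearman correlations of levels over the tested fragments of 0.89 to 0.96. The myotube libraries differed from each other more than muscle libraries did: the correlation was 0.60 between myotube libraries 1 and 2, 0.80 between 1 and 3, and 0.83 between 2 and 3. Myotube library 2 was closer to the muscle libraries (0.85 with each) than to either myotube library, while library 1 reached 0.53 to 0.75 with muscle. These correlations are across fragments of shared sequence and length, and carry no test. Because myotube libraries 1 and 2 stand apart, values without one of them are given where they moved by over 1.5 times.

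**Figure D1:**
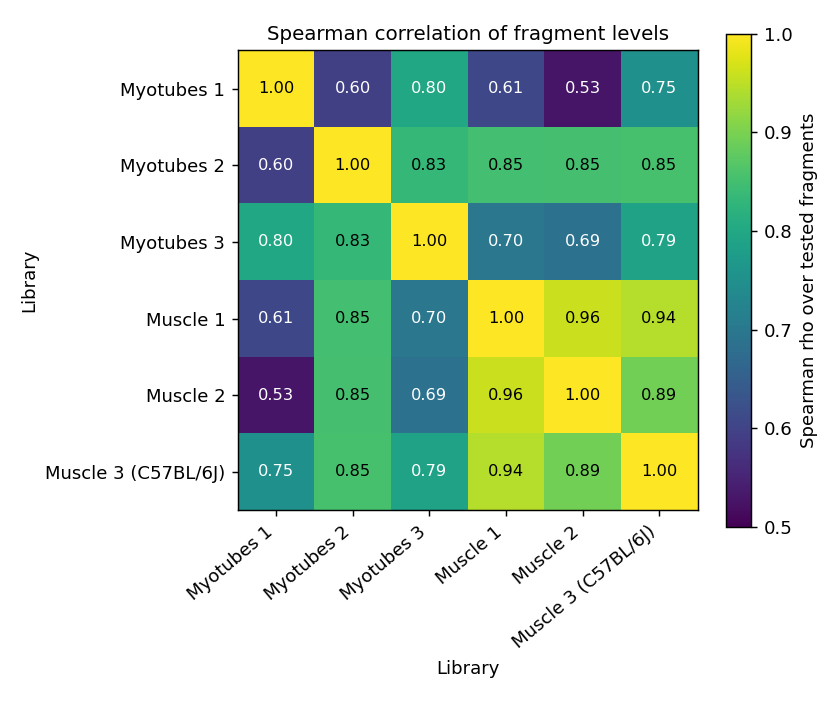
Spearman correlation of fragment levels between each pair of the 6 libraries over 15063 tested fragments, with the value written in each cell and colour from 0.5 to 1. The 3 muscle libraries form a block at 0.89 to 0.96, and myotube library 2 correlates at 0.85 with each of them but at 0.60 with myotube library 1.

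No fragment differed between muscle and myotubes at an adjusted p under 0.05 in edgeR's quasi-likelihood test (0 of 15063, 0.0%). The smallest adjusted p by edgeR was 0.163, and 3334 fragments had an unadjusted p under 0.05, of which 1251 were higher in muscle (8.31%) and 2083 lower (13.8%). DESeq2, run on the same counts, called 563 fragments higher (3.76%) and 1159 lower (7.73%) in muscle at an adjusted p under 0.05. Without myotube library 1, edgeR called 576 higher (3.55%) and 1970 lower (12.1%) of 16221 tested. Without myotube library 2 it called none, with a smallest adjusted p of 0.0523. The authors' deposited table, made with DESeq and pooled dispersion, calls 1022 fragments higher (4.09%) and 1845 lower (7.39%) of 24970 in this length range, and with per-condition dispersion the authors' deposited table calls 1725 higher (6.91%) and 6217 lower (24.9%). Of its 2766 pooled-dispersion calls tested here, 2766 have the sign of the edgeR difference and 2371 have groups that do not overlap. Those calls and the edgeR test share all libraries, so this is no independent support.

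Since no fragment was called, single fragments are described by their level in each library, and "higher" or "lower" means that all 3 muscle libraries lay beyond all 3 myotube libraries. By that measure 2047 fragments were higher in muscle (13.6%) and 2251 were lower (14.9%), and scaling by library totals instead gave 1292 and 2697. Myotube library 2 was the one nearest to muscle in 71.2% of the higher and 73.8% of the lower fragments. A single library often kept the groups from separating. Among myotubes this was most often library 2, which alone reached into the muscle range in 2554 fragments where muscle was otherwise higher and in 1494 where it was otherwise lower, against 1045 and 1706 for library 1 and 295 and 329 for library 3. Among muscle libraries it was most often library 3, the C57BL/6J one: in 1762 fragments muscle libraries 1 and 2 lay above all myotubes and library 3 did not, and in 1231 they lay below and it did not. For muscle library 1 these counts were 69 and 79, and for library 2 they were 482 and 112. The named fragments below were picked by a rule applied after values were seen, among 2614 that did not overlap and had an unadjusted edgeR p under 0.05. Where the groups did not overlap and levels are given for each library, the edgeR adjusted p was 0.163 to 0.211. It was larger for several genes that are only listed by name, for example 0.47 for Sgcd.

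Fragments of CpG islands had a positive median difference, which rested on some of the libraries. Over 729 island fragments tested, the median log2 difference (muscle minus myotubes) was 1.21, against -0.15 over all tested fragments, a value that was 0.0476 without myotube library 1. The median island level was 0.237 in myotube library 1, 22.5 in library 2 and 5.27 in library 3, and 13.8, 19.9 and 7.12 in muscle libraries 1 to 3. Myotube library 2 thus lay above all muscle libraries and myotube library 1 far below them, and the groups overlapped. Only 43 island fragments were higher in muscle (5.90%) and 3 lower (0.412%), both shares under the background of 13.6% and 14.9%. With myotube library 1 so low, few could be lower in all muscle libraries. Without that library edgeR called 74 of the 729 lower and 3 higher, against 1262 and 560 of the 15063. With C57BL/6J muscle alone the island median was 0.07, without myotube library 1 it was 0.79, and without myotube library 2 it was 2.83. Shores, the flanks of islands, had a median of 0.71 over 1178 fragments of 0.11 with C57BL/6J muscle alone and of 1.59 without myotube library 2.

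The share of a library's reads that fell in islands gave the same picture. It was 0.239% in myotube library 1, 4.40% in library 2 and 1.09% in library 3, against 3.42%, 4.72% and 1.58% in muscle. The mean was 3.24% ± 1.58 (SD, n = 3) in muscle and 1.91% ± 2.20 in myotubes, with p = 0.4 in a 2-sided exact permutation test, whose smallest possible p is 0.1 with 3 libraries a group. Promoters took 14.9% ± 2.67 of reads in muscle and 12.9% ± 2.85 in myotubes (exact permutation p = 0.5, n = 3). Introns took 30.8% ± 0.510 and 33.7% ± 2.36 (exact permutation p = 0.2, n = 3), with muscle at 30.4% to 31.3% and myotubes at 31.1% to 35.7%. Among 14 such shares no adjusted p was under 0.622 (exact permutation tests, Benjamini-Hochberg). At a common depth of 8584105 reads, 14699 to 15961 fragments had 5 or more reads in muscle and 13057, 18751 and 16803 in myotube libraries 1 to 3 (exact permutation p = 0.7).

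Promoter fragments, those overlapping the window from 2000 bp before to 500 bp after an annotated start, had a median difference of 0.41 over 2445 tested, -0.05 with C57BL/6J muscle alone and 1.15 without myotube library 2. Exons were at -0.48 over 1948, introns at -0.22 over 4323 and intergenic fragments at -0.17 over 6347, and the last pair turned to 0.0308 and 0.0608 without myotube library 1. Exonic fragments were lower in 18.7% and higher in 11.2%. Promoters outside islands and shores had a median of -0.20, -0.06 without myotube library 1 and -0.07 without library 2, with 13.5% higher and 13.8% lower, close to the background.

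**Figure D2:**
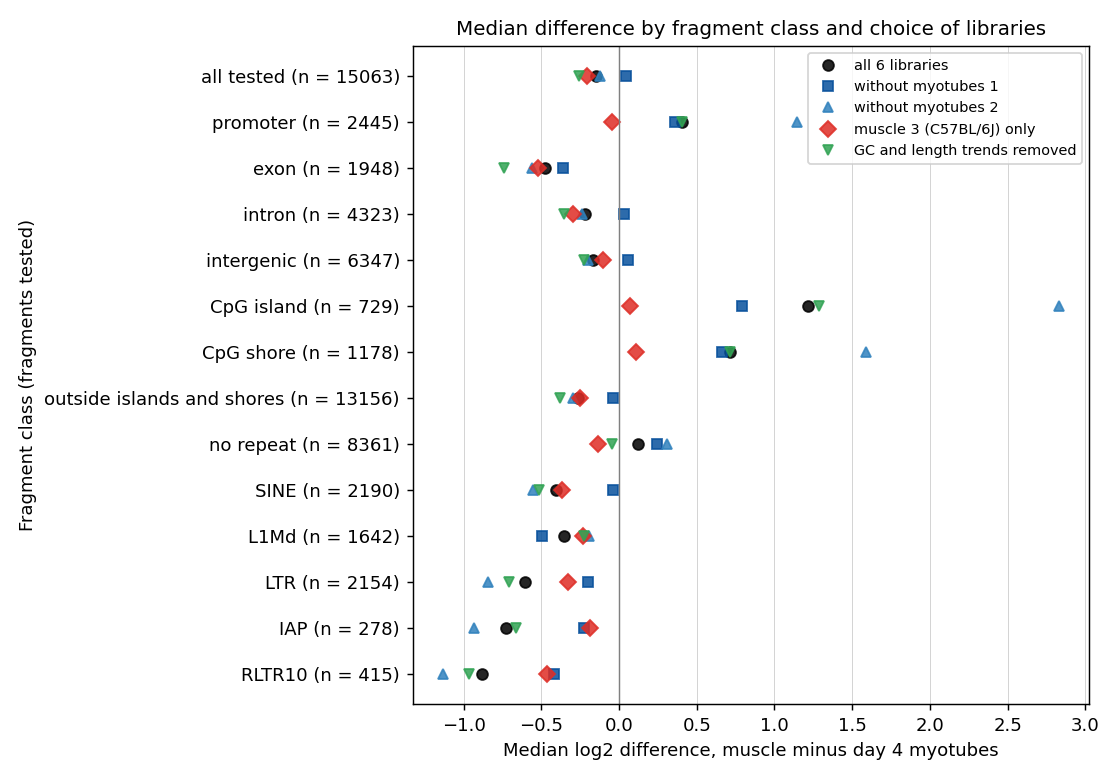
Median log2 difference (muscle minus day 4 myotubes) of 14 fragment classes, with the number of fragments tested, under 5 choices of libraries or scaling marked by symbol. Islands and shores lie to the right of all fragments with 6 libraries, at 1.21 and 0.71, and near 0 where muscle is the C57BL/6J library alone.

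Among LINE, SINE and LTR elements, LTR elements had the highest share of lower fragments. Shares in this paragraph stand against 14.9% lower and 13.6% higher over all tested fragments. Of 2154 LTR fragments, 490 were lower in muscle (22.7%) and 234 higher (10.9%), with a median of -0.61, which was -0.20 without myotube library 1 and -0.33 with C57BL/6J muscle alone. IAP, a young and normally silenced family, had a median of -0.73 over 278 fragments, 61 of them lower (21.9%), -0.23 without myotube library 1 and -0.19 with C57BL/6J muscle alone. RLTR10 elements had a median of -0.88 over 415, with 123 lower (29.6%) and 22 higher (5.30%), and of -0.42 without myotube library 1 and -0.46 with C57BL/6J muscle alone. L1Md, the young mouse L1 family, was at -0.36 over 1642 fragments, at -0.23 with C57BL/6J muscle alone and at -0.19 without myotube library 2. Its 292 fragments of 190 to 210 bp, a class picked after its values were seen, were at -1.08 with 60 lower (20.5%) and 23 higher (7.88%), and at -0.70 with C57BL/6J muscle alone. In the whole libraries the share of reads in IAP was 1.18% ± 0.432 in muscle and 1.22% ± 0.247 in myotubes (n = 3, exact permutation p = 0.9). The L1Md share was 3.13% ± 0.720 and 3.32% ± 0.698 (n = 3, exact permutation p = 0.7).

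A pair of L1Md_F3 copies of near-equal length show the element-derived fragments that were low in muscle, one in an intron of 4930412B13Rik (chr2:117655114-117655318) and one between genes (chr1:107036518-107036721).
4930412B13Rik L1Md_F3: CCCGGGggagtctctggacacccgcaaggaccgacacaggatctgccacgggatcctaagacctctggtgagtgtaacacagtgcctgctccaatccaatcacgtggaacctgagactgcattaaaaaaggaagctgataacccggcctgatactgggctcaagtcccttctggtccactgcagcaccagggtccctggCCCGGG
intergenic L1Md_F3: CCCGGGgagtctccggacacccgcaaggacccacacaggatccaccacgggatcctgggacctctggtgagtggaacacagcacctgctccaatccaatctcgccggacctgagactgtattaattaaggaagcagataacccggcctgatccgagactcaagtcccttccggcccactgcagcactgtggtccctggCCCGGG
The copy in 4930412B13Rik was at 280, 23.0 and 111 in myotube libraries 1 to 3 and at 1.18, 1.89 and 5.06 in muscle, a log2 difference of -5.66 ± 1.11 (SE). The intergenic copy was at 69.8, 24.3 and 82.5 in myotubes and at 1.82, 2.16 and 3.94 in muscle, a difference of -4.47 ± 0.79. All muscle libraries were under the lowest myotube library by a wide margin in both. Each sequence occurs at 1 fragment of the table, although related copies may still share reads. An RLTR10A fragment in an intron of Dcc, a netrin receptor gene, was at 55.9, 10.7 and 36.8 in myotubes and 1.39, 0.541 and 1.22 in muscle (-5.01 ± 0.89).

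Fragment length moved with the comparison. Of 233 tested fragments under 100 bp, 118 were higher in muscle (50.6%) and 1 lower, with a median log2 difference of 1.83. Their median level was 0.474, 1.55 and 0.766 in myotube libraries 1 to 3 and 2.79, 3.65 and 2.62 in muscle. At such levels a fragment can pass the read minimum through muscle alone. Fragments of 400 to under 800 bp were higher in 22.5% and lower in 4.36%, and fragments of 1200 to under 2000 bp were higher in 4.89% and lower in 28.5%, with medians of 0.34 and -0.72. Without myotube library 1 these medians were 0.66 and -0.63. Long fragments, of at least 1000 bp, held 7.01% ± 1.05 of the reads in muscle and 10.6% ± 2.20 in myotubes (n = 3, exact permutation p = 0.2). After GC and length trends were removed, a correction chosen after seeing the data, the median was 0.34 for fragments under 100 bp and -0.29 for those of 1200 bp or more, and -0.26 over all fragments. How far length accounts for a single fragment below was not tested beyond that correction, and corrected differences are given below for fragments whose value it moved by over 1.5 times. It shrank the difference by that much in 18 of 46 named fragments with a positive difference and in 0 of 30 with a negative one. With C57BL/6J muscle alone, 30 of the 46 positive differences shrank by over 1.5 times or turned, and 0 of the 30 negative ones did.

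**Figure D3:**
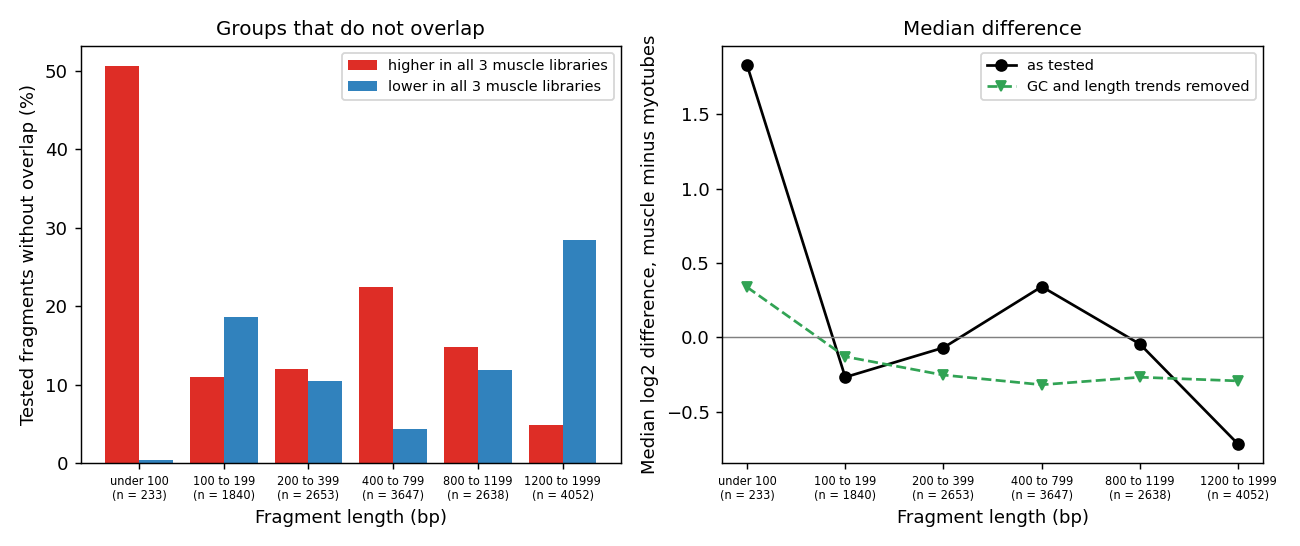
Left, share of tested fragments that were higher or lower in all 3 muscle libraries than in all 3 myotube libraries, by fragment length in bp. Right, median log2 difference per length class as tested and after removal of GC and length trends. Fragments under 100 bp were higher in muscle in 50.6%, and the median of 1.83 there was 0.34 after the correction.

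The counts for gene lists that follow stand against 13.6% higher and 14.9% lower over all tested fragments. Genes of the contractile apparatus showed fragments in both directions. Of 74 listed genes 27 had a tested fragment, 45 fragments in all, of which 9 were higher in muscle (20.0%) and 5 lower (11.1%), with a median of 0.39 against -0.15 over all fragments. The list's median was 0.15 without myotube library 1, 0.78 without library 2 and 0.16 with C57BL/6J muscle alone. Higher fragments belonged to Mybph, Myom3, Mybpc1, Sgcd, Actn2, Ldb3, Myh7 and Actn3, and lower ones to Obsl1, Neb, Ttn, Myom3 and Dtna. DESeq2 called 2 higher and 2 lower.

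In Ttn, the giant elastic protein of the sarcomere, an exonic fragment (chr2:76589158-76589460) was at 2766, 258 and 1030.5 in myotube libraries 1 to 3 and at 98.5, 102 and 111 in muscle. The muscle libraries were nearly equal and all under the lowest myotube library, with a log2 difference of -3.70 ± 0.87 (DESeq2 adjusted p = 0.00125). In Obsl1, a cytoskeletal linker of the sarcomere, a fragment that also overlaps Tmem198 was at 269, 134 and 414 in myotubes and at 55.1, 61.3 and 73.6 in muscle (-2.10 ± 0.63, and -3.58 after the GC and length correction). In Myh7, the slow myosin heavy chain, a fragment of 1038 bp was at 47.3, 54.2 and 33.8 in myotubes and at 140, 185 and 89.4 in muscle (1.61 ± 0.61, and 0.94 to 1.92 across the alternatives). Groups did not overlap in these. In Ldb3, a Z-disc protein, the intronic island fragment printed above was at 0.237, 9.05 and 0.479 in myotubes and 37.0, 44.4 and 10.5 in muscle (3.20 ± 1.26). Muscle library 3 and myotube library 2 were close there, and the difference was 1.7 with C57BL/6J muscle alone 1.83 after the GC and length correction and 6.31 without myotube library 2.

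Acta1, the skeletal alpha-actin, had a promoter fragment (chr8:126417989-126418689) at 2.13, 71.4 and 37.9 in myotubes and 154, 291 and 62.1 in muscle. The groups overlapped, since myotube library 2 was above muscle library 3, and the edgeR adjusted p was 0.249 for a difference of 2.18 ± 1.07. Across the alternatives that difference ranged from 0.73 to 3.03. Des, the muscle intermediate filament, had an exonic fragment at 638, 141 and 227 in myotubes and 160, 145 and 133 in muscle. It overlapped too (-1.20 ± 0.67, edgeR adjusted p = 0.293), and the difference was -0.29 without myotube library 1.

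Of 45 genes of excitation and calcium handling, 14 had 37 tested fragments, 6 higher and 6 lower (16.2% each, near the shares over all fragments), with a median of -0.28. The lower ones included fragments of Musk, Ryr1, Stac3, Scn4a and Cacng1, and the higher ones included fragments of Dok7, Nos1, Camk2a and Camk2b. Cacng1, the gamma subunit of the muscle calcium channel, had the fragment printed above centred at -1959 bp from its start, at 913, 102 and 335 in myotube libraries 1 to 3 and 23.2, 18.4 and 37.6 in muscle. Every muscle library was under every myotube library. The difference was -4.09 ± 0.88 (edgeR adjusted p = 0.163, DESeq2 adjusted p = 0.000262), and across the alternatives it ranged from -4.61 to -3.03. In CPM without TMM scaling the fragment was at 149 to 515 in the 3 libraries of proliferating myoblasts and 254 to 367 in ES cells, against 15.8 to 41.3 in muscle. Muscle was thus the lowest of these groups there.

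In Camk2b, a calcium/calmodulin kinase subunit, the intronic fragment was at 7.11, 19.8 and 9.96 in myotubes and 82.5, 69.6 and 49.3 in muscle (2.45 ± 0.67). The groups did not overlap there. They did in the fragment of Ryr1, the calcium release channel, that was chosen by level, which was at 57.2, 59.5 and 248 in myotubes and 87.4, 152 and 61.2 in muscle (-0.28 ± 0.75, edgeR adjusted p = 0.834, -0.60 without myotube library 1 and -0.65 without library 2).

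Among genes of muscle metabolism, 17 of 45 had 29 tested fragments, with 5 higher (17.2%), 1 lower (3.45%) and a median of 0.06. The median turned to -0.35 without myotube library 1 and to -0.49 with C57BL/6J muscle alone, and was 0.48 without library 2. The 5 were in Hk2, Ckm, Eno3, Cpt1b and Ppard, and 4 of them lay in promoter windows. Ckm, the muscle creatine kinase, had a promoter fragment (chr7:19996443-19997294) at 3.32, 17.7 and 0.0958 in myotubes and 39.5, 63.8 and 55.4 in muscle. All muscle libraries, the C57BL/6J one included, were above all myotube libraries, with a difference of 2.90 ± 1.24 (edgeR adjusted p = 0.211, DESeq2 adjusted p = 0.0451) 2.99 with C57BL/6J muscle alone and 4.94 without myotube library 2. Unscaled, the same fragment was at 0 to 0.688 CPM in ES cells and 0.139 to 11.2 in myoblasts. Hk2, a hexokinase, had a promoter fragment at 333, 148 and 137 in myotubes and 778, 579 and 362 in muscle (1.47 ± 0.62, and 0.74 to 2.06 across the alternatives). Eno3, the muscle enolase, had an island fragment centred at -1589 bp from its start, which also belongs to Pfn1 and Gm12319 and need not reflect Eno3. This fragment was at 0, 1.07 and 0.0958 in myotubes and 7.83, 5.68 and 1.69 in muscle, from 21 and 133 reads in all (3.54 ± 1.24, 6.24 without myotube library 2 and 2.01 with C57BL/6J muscle alone). The better covered Eno3 promoter fragment overlapped, at 0.237, 49.8 and 10.4 in myotubes and 88.8, 165 and 41.0 in muscle (2.28 ± 1.28, edgeR adjusted p = 0.297, 4.14 without myotube library 2, and as low as 1.04 across the alternatives).

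Myogenic regulators had 45 tested fragments from 22 of 50 genes, 5 higher and 5 lower (11.1% each), with a median of 0.60, which was -0.10 with C57BL/6J muscle alone and 1.34 without myotube library 2. Myod1, Myog and Myf6 had no tested fragment, so of the myogenic determination factors Myf5 alone is described here. The fragment of Myf5, the determination factor, was at 1.07, 24.6 and 5.56 in myotubes and 32.8, 53.3 and 21.1 in muscle, and overlapped (1.77 ± 1.00, edgeR adjusted p = 0.295, 3.37 without myotube library 2, and as low as 1.03 across the alternatives). Pax3 and Pax7 specify muscle precursors. The promoter fragment of Pax3 (chr1:78193784-78194508) was at 1.78, 47.2 and 11.9 in myotubes and 145, 205 and 39.6 in muscle (2.67 ± 1.09, edgeR adjusted p = 0.202). Muscle library 3 was below myotube library 2 there, so the groups overlapped, and with C57BL/6J muscle alone the difference was 0.97 and without myotube library 2 it was 4.2. Pax7 had one promoter island fragment at 4.39, 110 and 16.7 against 212, 224 and 62.0, which overlapped (1.93 ± 1.07, edgeR adjusted p = 0.289, 3.93 without myotube library 2, and as low as 0.53 across the alternatives), and the neighbouring 79 bp fragment at 0, 1.77 and 0.383 against 8.69, 13.4 and 3.47, which did not. The difference of the latter was 3.48 ± 1.20 from 37 myotube and 217 muscle reads, 1.80 after the GC and length correction and 5.27 without myotube library 2.

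All 5 lower regulators' fragments were in Hdac4, Mef2d and Tead4, and the 5 higher ones were in Pax7 and Prdm16, which drives brown fat over muscle fate and supplied 4 of them. Hdac4, a deacetylase that represses Mef2, had an exonic fragment at 290, 55.8 and 147 in myotubes and 22.5, 33.5 and 35.3 in muscle (-2.43 ± 0.73). The Prdm16 promoter fragment was at 7.47, 82.3 and 43.4 in myotubes and 180, 269 and 97.1 in muscle (2.04 ± 0.86, 1.35 after the GC and length correction, and 1.11 to 2.79 across the alternatives). Mef2c, a partner of the myogenic factors, was nearly equal, at 29.6, 38.4 and 46.9 against 56.4, 21.9 and 37.2 (0.01 ± 0.62, edgeR adjusted p = 0.996), a value whose sign depends on the setting. Satellite cell genes had 24 tested fragments, 4 higher (16.7%) and 5 lower (20.8%), with a median of 0.10, which was 0.06 without myotube library 1, -0.05 without library 2 and -0.02 with C57BL/6J muscle alone. A cell cycle list, which holds cyclins, E2f factors and Myc beside inhibitors, had 16 tested fragments, with 3 higher (18.8%) and 1 lower (6.25%). Its median was 1.20, which was 0.33 with C57BL/6J muscle alone and 1.94 without myotube library 2.

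**Figure D4:**
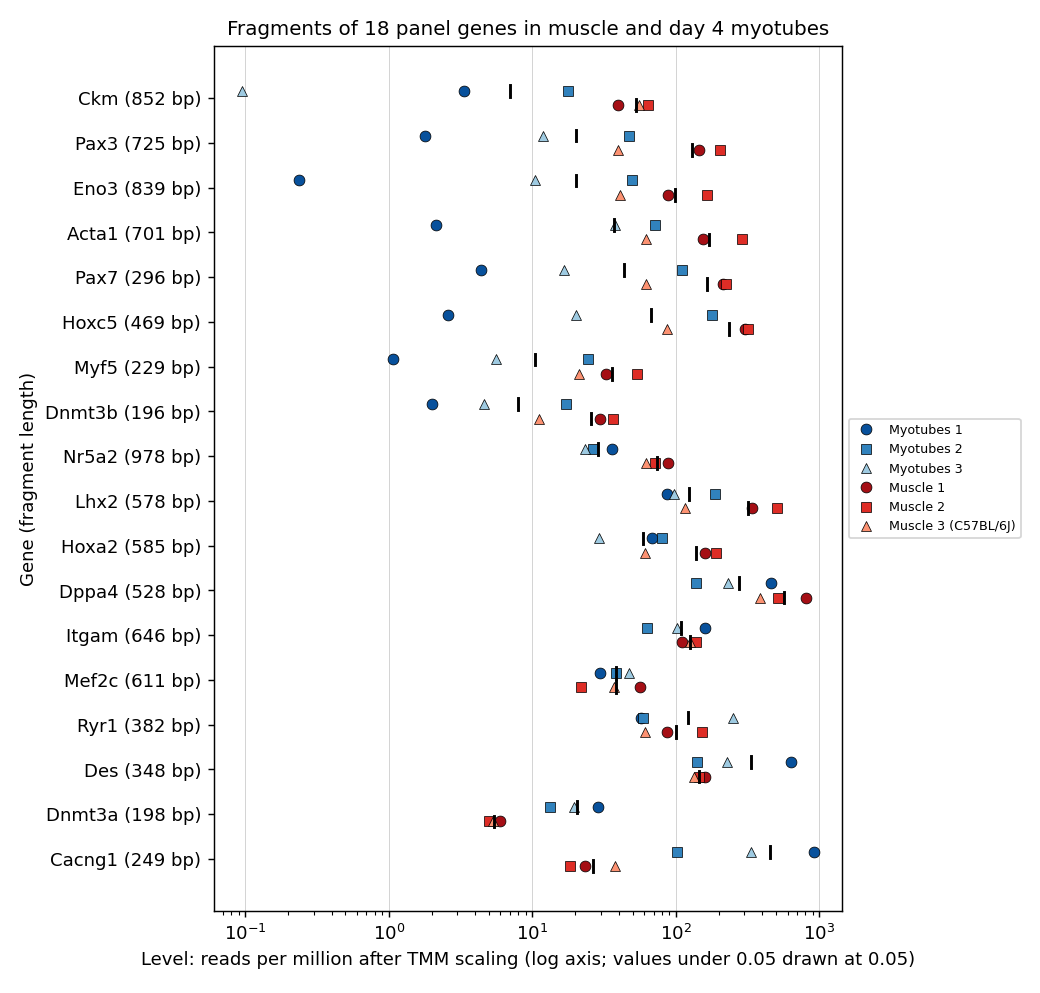
Level in each of the 6 libraries (CPM after TMM scaling, log axis) of 1 fragment for each of the 18 panel genes with a tested fragment, ordered by log2 difference, with vertical ticks at group means. Cacng1 and Dnmt3a lie lower and Ckm and Nr5a2 higher in all muscle libraries, while the other 14 overlap.

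Outside the muscle lists, pluripotency genes had 15 tested fragments, 4 higher (26.7%) and 2 lower (13.3%), with a median of 1.26 and of 0.46 with C57BL/6J muscle alone. Dppa4, a marker of pluripotent cells, had its 528 bp promoter fragment at 460, 138 and 231 in myotubes and 807, 518 and 385 in muscle, which overlapped (1.04 ± 0.64, edgeR adjusted p = 0.33, 0.50 after the GC and length correction, 0.68 without myotube library 2 and 1.66 without library 1). Its 84 bp neighbour was at 5.10, 1.45 and 2.20 against 22.0, 26.5 and 9.84 and did not overlap (2.74 ± 0.78, and 1.67 to 3.46 across the alternatives). Unscaled, the 528 bp fragment was at 0.550 to 2.29 CPM in ES cells, below every muscle and myotube library. Nr5a2, a nuclear receptor of early embryos, went both ways: an intronic fragment was at 35.8, 26.3 and 23.4 against 87.7, 71.9 and 62.3 (1.38 ± 0.58), and another at 10.6, 2.73 and 4.98 against 0.965, 0.676 and 1.22 (-2.65 ± 0.83).

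HOX genes had 16 tested fragments with a median of 1.33, of which 1 was higher (Hoxb13, 6.25%) and 2 were lower (Hoxa3 and Hoxc4, 12.5%). The median was 0.41 with C57BL/6J muscle alone and 2.73 without myotube library 2. The Hoxc5 promoter fragment showed the spread: it was at 2.61, 179 and 20.1 in myotubes and 304, 318 and 86.6 in muscle (1.81 ± 1.21, edgeR adjusted p = 0.363). The difference was 1.14 after the GC and length correction, 4.32 without myotube library 2, and as low as 0.39 across the alternatives. Other developmental homeobox genes had 98 tested fragments, 8 higher (8.16%) and 10 lower (10.2%), with a median of 0.47, which was -0.09 with C57BL/6J muscle alone and 0.98 without myotube library 2. Zfhx3, a zinc finger homeobox factor of muscle and neurons, had the exonic fragment printed above at 123, 20.2 and 61.4 in myotubes and 9.54, 7.84 and 9.18 in muscle (-2.94 ± 0.77, DESeq2 adjusted p = 0.00612). Imprinted genes had 26 tested fragments, 5 higher (19.2%) and 7 lower (26.9%), with a median of -0.46, which was -0.16 without myotube library 1. Germ line genes had 25, 1 higher (4.00%) and 3 lower (12%), and the exonic fragment of Mov10l1, a piRNA helicase, was at 232, 16 and 56.9 in myotubes against 1.5, 1.76 and 5.34 in muscle (-5.13 ± 1.13).

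The list of methylation machinery, which also holds genes of histone modification, had 13 tested fragments, 1 higher (7.69%) and 3 lower (23.1%). The intronic fragment of Dnmt3a printed above was at 28.9, 13.3 and 19.4 in myotubes and 6.00, 5.00 and 5.34 in muscle. Groups did not overlap, and the difference was -1.91 ± 0.64 (edgeR adjusted p = 0.166, DESeq2 adjusted p = 0.0501), and -2.02 with C57BL/6J muscle alone. In ES cells it was at 0 to 0.459 CPM unscaled. The Dnmt3b promoter fragment overlapped, at 2.02, 17.3 and 4.60 against 29.6, 36.5 and 11.1 (1.68 ± 0.89, edgeR adjusted p = 0.273, 2.91 without myotube library 2, and as low as 0.47 across the alternatives). Kdm2b, a histone demethylase that binds unmethylated islands, had an intronic fragment at 12.8, 9.74 and 15.3 in myotubes and 1.29, 0.946 and 2.72 in muscle (-2.92 ± 0.74).

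Genes of other cell types in whole muscle were read through the same lists, as fragment levels only, since the data hold no transcripts and cannot check the tissue label by expression. Blood genes had 36 tested fragments from 17 of 61 genes, 7 higher (19.4%) and 6 lower (16.7%), with a median of 0.58, which was 1.35 without myotube library 2 and 0.09 with C57BL/6J muscle alone. Endothelial genes had 39, 5 higher (12.8%) and 2 lower (5.13%), and their median turned from -0.09 to 0.32 without myotube library 1 and was -0.25 without library 2. Fibroblast and matrix genes had 51, 8 higher (15.7%) and 10 lower (19.6%), with a median of -0.18, and of -0.45 without myotube library 1. Adipocyte genes had 29, 4 higher (13.8%) and 5 lower (17.2%), with a median of 0.48, which was 0.03 without myotube library 1, 0.92 without library 2 and -0.16 with C57BL/6J muscle alone. Schwann cell genes had 7, 1 higher and 1 lower (14.3% each), with a median of 0.81, and of 0.38 without myotube library 1. Cdh5, an endothelial cadherin, had no tested fragment, and neither had Cdh15, the muscle cadherin. The part of other cell types in any difference above was not tested.

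Itgax, an integrin of dendritic cells, had an exonic fragment at 174, 329 and 338 in myotubes and 1678, 2029 and 803 in muscle (2.42 ± 0.64, and 1.28 after the GC and length correction). A promoter fragment of Lck, also of the blood list, went the other way, at 67.7, 7.07 and 29.3 against 2.68, 2.43 and 6.37 (-3.17 ± 0.92). Col4a1, a basement membrane collagen, had a promoter fragment of 1581 bp at 68.2, 17.8 and 61.7 against 2.57, 3.65 and 6.37 (-3.54 ± 0.79). An exonic fragment of Col5a3, of the same list, was higher, at 35.0, 27.2 and 17.4 against 93.2, 104 and 100 (1.90 ± 0.60, and 0.35 to 2.21 across the alternatives). Plin1, the lipid droplet protein of fat cells, was at 12.5, 149 and 54.2 against 617, 836 and 257 (2.99 ± 0.91, and 1.83 to 4.05 across the alternatives). An intronic fragment of Zfp423, also of the adipocyte list, was lower, at 14.5, 6.32 and 27.9 against 2.68, 3.25 and 4.4 (-2.23 ± 0.76). Groups did not overlap in these, nor in Emcn, an endothelial sialomucin (24.8, 41.0 and 21.7 against 227, 60.6 and 168). Itgam, a myeloid integrin, did overlap, at 158, 63.4 and 103 against 111, 139 and 125 (0.21 ± 0.59, edgeR adjusted p = 0.846, 0.63 without myotube library 1 and -0.10 without library 2).

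**Figure D5:**
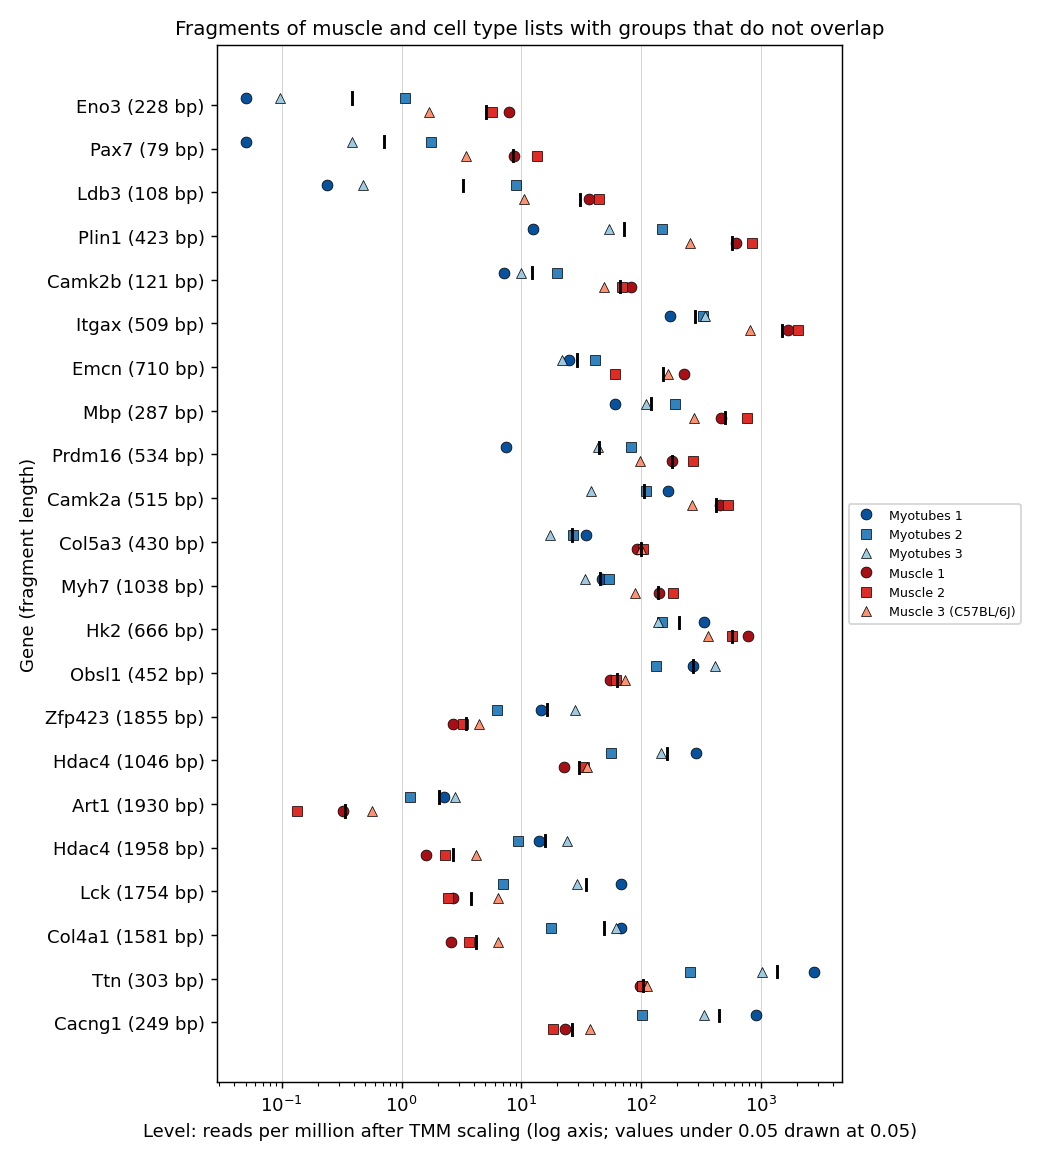
Level in each of the 6 libraries (CPM after TMM scaling, log axis) of fragments with the smallest unadjusted p in each direction for muscle and cell type lists, ordered by log2 difference, with vertical ticks at group means. They were chosen for groups that do not overlap, so the separation is by choice, and the plot shows that myotube library 2 is often the one nearest to muscle.

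Outside these lists, the genes that follow had the largest differences among fragments in genes with a mean level at or above the median of tested fragments. Ctbp2, a transcriptional corepressor, had the intronic fragment printed above at 404, 22.3 and 125 in myotubes and 1.61, 2.03 and 3.37 in muscle (-6.29 ± 1.14, DESeq2 adjusted p = 1.78e-07). After the GC and length correction it was still -6.29. Exonic fragments of Gcn1l1, which acts in the amino acid stress response, and Tnip1, a regulator of NF-kB, had a different pattern. Gcn1l1 was at 1.78, 101 and 78.9 against 1.07, 0.541 and 0.562 (-6.36 ± 1.35), and Tnip1 at 1.66, 118 and 135 against 0.751, 1.62 and 1.22 (-6.14 ± 1.39). In both, myotube library 1 was close to muscle and only libraries 2 and 3 were high.

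On the higher side, Alox12e, a lipoxygenase, had an exonic fragment of 100 bp at 6.05, 24.7 and 5.17 in myotubes and 141, 255 and 90.9 in muscle (3.76 ± 0.86). Casz1, a zinc finger factor of heart and muscle development, had an intronic one at 4.62, 50.4 and 3.83 against 240, 287 and 143 (3.50 ± 1.05, and 5.69 without myotube library 2). Slc16a1, a lactate transporter, had a promoter one at 0, 10.1 and 1.53 against 45.7, 61.0 and 12.7 (3.34 ± 1.38, 5.59 without that library, and as low as 1.72 across the alternatives). Muscle library 3 was the lowest of its group in all of these. The promoter island fragment with the smallest p was that of 1700019E19Rik, at 3.32, 83.7 and 24.7 against 360, 457 and 132 (3.08 ± 1.05, and 1.83 to 4.44 across the alternatives). No promoter island fragment of 545 tested was lower in all muscle libraries, and 34 were higher (6.24%). Both shares were under those over all tested fragments, 14.9% lower and 13.6% higher. The median level of these 545 was 0.237 in myotube library 1, so few could lie below it in all muscle libraries. Without that library edgeR called 50 of them lower and 3 higher, against 1262 and 560 of the 15063.

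The smallest p-values of all belonged to very short fragments, which are printed for their length and repetition.
chr12 first: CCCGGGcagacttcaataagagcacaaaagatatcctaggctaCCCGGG
chr12 second: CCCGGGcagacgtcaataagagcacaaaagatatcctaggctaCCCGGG
Pole4 intron: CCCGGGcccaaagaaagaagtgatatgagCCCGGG
The first pair is adjacent (chr12:60855339-60855387 and chr12:60855382-60855430) in a run of 28 fragments of 43 bp with 6 distinct sequences. Of these fragments 4 had enough reads to be tested, and those 4 were higher in muscle. The printed pair had 7 and 19 reads over all myotube libraries against 321 and 582 in muscle, so it passed the read minimum only through muscle. The count of higher fragments among those tested is therefore no separate result. The first was at 0.237, 0.214 and 0.0958 in myotubes and 18.4, 13.1 and 4.87 in muscle (5.96 ± 0.95, and 3.69 after the GC and length correction). Its sequence occurs at 17 fragments of the table, so which copy its reads come from is uncertain. The Pole4 fragment (chr6:82635235-82635269), in a gene of a DNA polymerase subunit, was at 0.712, 1.02 and 0.862 against 23.7, 30.4 and 11.8 (4.64 ± 0.76), and 0.37 after the GC and length correction. Some genes were picked for having the most separated fragments, where 13.6% of all tested fragments were higher and 14.9% lower. In Pole4, 10 of 12 tested fragments were higher, in Clip3 5 of 5, in Ptprf 4 of 8 and in Fgfr2 4 of 30, while in Zmiz1 4 of 8 were lower. The long gene model Gm20388 had more separated fragments, 15 lower and 12 higher, but of 114 tested.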

How the data were processed

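AIMS-seq libraries were sequenced and mapped to mm9, per the labels' protocols, and Bowtie 0.11.3 and DESeq are named in the submitters' processing notes. The deposited table holds raw read counts per fragment, per the file headers. The authors' comparison table gives p-values, log2 values of (mean + 1) ratios and mean scaled scores as deposited. The 184 further per-sample columns of scaled values were not used. Read filters and treatment of multiply mapped reads are not given in the sources used here.

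Fragments were annotated with GENCODE M1 on mm9, and 100% of their ends lie at CCCGGG. Island, shore and repeat labels were taken as the authors deposited them. A fragment belongs to a gene if it overlaps its body or the 2000 bp before it. Where a fragment overlaps several genes, the listed one is named. Counts were tested with edgeR 4.0.16 (TMM, filterByExpr minimum count 10, quasi-likelihood, 2-sided, Benjamini-Hochberg over all tested fragments, threshold 0.05), with no block, in R 4.3.3, after a check on simulated data. There the test recovered 0.0% of 200 fragments changed 4-fold and 27.5% of 200 changed 16-fold. A lack of calls therefore does not show that the groups are alike. DESeq2 1.42.0 was an alternative. The SE of a log2 difference was derived from edgeR's F. Library shares were compared with exact permutation tests in Python 3.11.15 with scipy 1.17.1. Other versions were limma 3.58.1, numpy 2.4.6, pandas 2.3.3 and matplotlib 3.10.9. Muscle library 3 is of another strain than muscle libraries 1 and 2, but the labels do not say that libraries 1 and 2 came from separate animals. The p-values measure only the spread between these 3 libraries a group. In muscle that spread includes the strain difference, and part of it may be technical. Reads carry no molecular identifiers.

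The fragments, 22 gene lists and tests were chosen with earlier results of these data known. Named fragments are, for 24 panel genes, the promoter fragment of highest mean level (else any fragment), and, for each list and direction, the called fragments of smallest adjusted p, the 5 largest differences in named genes with a mean at or above the median level, the 3 smallest p, the 3 smallest p among promoter islands and the 5 genes with most fragments. As no fragment was called, these were applied, after values were seen, to non-overlapping fragments with an unadjusted p under 0.05. Of the 76 fragments so named, the text and plots give a selection, and some items are not reported here.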

Additional observations from a re-analysis of the deposited data

How the results depend on the processing

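Of 17 alternatives, 4 gave calls at an adjusted p under 0.05: the DESeq2 test (563 higher, 1159 lower in muscle), no low-count filter in edgeR (544 and 814), all groups of the series in one edgeR fit (188 and 1933), and edgeR with one library left out, which ranged from 0 to 576 higher and from 0 to 1970 lower, with all of those calls arising without myotube library 1. The other settings, including other scalings, a minimum of 30 reads, the whole table, 200 bp to under 2000 bp and C57BL/6J muscle alone, gave 0 calls, like the main test. The cause was not tested. Fragments without overlap were 1292 higher with library totals, and with one library left out they ranged from 2325 to 4472 higher and from 2469 to 4608 lower, where fewer libraries separate more easily. Scaling moved the median of all fragments from -0.15 to -0.33 with library totals and to 0.01 with the whole table. A replicate block kept 0 calls and left 3065 fragments at an unadjusted edgeR p under 0.05, against 3334. Same-numbered libraries had correlated deviations of -0.07, 0.44 and -0.11, so the numbers do not pair them.

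Of 76 named fragments, 71 kept their sign under all alternatives run. Mef2c was at -0.0216 with DESeq2 size factors, -0.0214 with the DESeq2 test, -0.25 with library totals, -0.13 with a minimum of 30, -0.0609 from 200 bp, -0.0801 with the replicate block, -0.36 with all groups, -0.10 with C57BL/6J muscle alone, -0.41 with GC and length trends removed, and from -0.31 to 0.27 with one library left out. Ryr1 was at 0.0497 with the block and from -0.71 to 0.78 with one left out. Lhx2 was at -0.14 with C57BL/6J muscle alone, Itgam at -0.0445 with all groups, -0.51 with trends removed and from -0.10 to 0.63 with one left out, and Pcdhgc5 at -0.0097 with trends removed. Differences in shares (percentage points) ranged, with one library left out, from -0.65 to 0.688 for LINE, from -0.589 to 0.154 for L1Md, from -0.842 to 0.12 for B1 and from -0.269 to 0.163 for IAP, and the L1Md share was 0.117 higher from 200 bp. Detected fragments differed by -2421 to 426 with one left out.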
